A study of Mus musculus with 18 samples.

Results

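The liver sinusoidal endothelial markers are 10 genes chosen by name, *Pecam1*, *Kdr*, *Stab1*, *Stab2*, *Clec4g*, *Lyve1*, *Fcgr2b*, *Oit3*, *Bmp2* and *Eng*, out of 22524 genes counted in mouse liver. All 10 passed the filter on low counts, as did 13353 genes in all. Liver RNA was sequenced from 18 female C57BL/6 mice aged 15 months, with 1 library per mouse. The 10 A226Y mice were heterozygous for a knock-in allele of *Rps2*, a protein of the small ribosomal subunit, that raises the rate of translation errors. The 8 wild-type mice (WT) expressed CMV-Cre, a ubiquitous Cre recombinase, and the same Cre line was used to excise the stop cassette of the A226Y allele. Excision was incomplete, so A226Y livers were mosaics of cells with the mutant allele and cells with the silent floxed allele, which lack 1 working copy of *Rps2*. The question asked here is how the transcripts of the vessel lining of the hepatic lobule compared between the genotypes.

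Sinusoidal endothelial cells line the capillaries between the plates of hepatocytes. They are perforated by fenestrae, lack a continuous basement membrane and clear macromolecules such as hyaluronan, modified lipoproteins and immune complexes from the blood through scavenger receptors. They also secrete factors that act on hepatocytes, among them BMP ligands, which set hepatic hepcidin and thereby iron uptake, and Wnt ligands, which pattern the metabolic zones of the lobule.

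The promoter windows of 3 members are printed to show which short motifs of endothelial regulators lie in them, since all members are transcribed in the same cell type. RefSeq promoter sequences (GRCm38.p6, from 250 bases before to 50 after the start site) matched 6 of the 10 members, *Kdr*, *Stab1*, *Stab2*, *Clec4g*, *Fcgr2b* and *Eng*, and not *Pecam1*, *Lyve1*, *Oit3* and *Bmp2*. The windows are *Stab2* at chr10:87007893-87008192 (minus strand), *Clec4g* at chr8:3720602-3720901 (minus strand) and *Eng* at chr2:32646345-32646644 (plus strand), each read 5′ to 3′ on the strand of its gene. Capitals mark matches on either strand to AGGAAG, an ETS-type motif whose reverse complement is CTTCCT, and to TATAAA, the TATA box motif, whose reverse complement is TTTATA.
Stab2: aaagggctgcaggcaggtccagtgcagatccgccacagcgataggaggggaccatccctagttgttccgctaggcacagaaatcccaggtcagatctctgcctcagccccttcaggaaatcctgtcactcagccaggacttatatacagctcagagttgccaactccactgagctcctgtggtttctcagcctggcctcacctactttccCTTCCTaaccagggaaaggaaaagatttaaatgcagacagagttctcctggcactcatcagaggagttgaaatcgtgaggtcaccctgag
Clec4g: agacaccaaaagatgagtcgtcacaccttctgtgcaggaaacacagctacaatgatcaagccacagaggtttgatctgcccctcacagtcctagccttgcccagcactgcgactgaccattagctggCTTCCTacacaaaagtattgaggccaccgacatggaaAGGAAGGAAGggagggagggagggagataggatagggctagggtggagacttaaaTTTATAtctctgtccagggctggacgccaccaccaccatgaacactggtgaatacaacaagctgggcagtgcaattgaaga
Eng: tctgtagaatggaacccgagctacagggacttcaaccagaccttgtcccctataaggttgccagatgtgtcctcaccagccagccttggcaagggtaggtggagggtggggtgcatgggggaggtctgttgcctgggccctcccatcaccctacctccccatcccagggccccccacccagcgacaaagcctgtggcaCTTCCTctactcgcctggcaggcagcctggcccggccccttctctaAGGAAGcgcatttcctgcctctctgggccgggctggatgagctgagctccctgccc
AGGAAG was found in 4 of the 6 members with a window, against 35.1% of 27025 promoters of this length. It lay 40 bases before the start site of *Stab2*, 123, 86 and 82 bases before that of *Clec4g*, where the last 2 matches overlap, and 52 and 6 bases before that of *Eng*. The fourth member was *Stab1*, with 1 match 116 bases before its start. TATAAA was found in *Clec4g* alone, 31 bases before the start, and in 14.2% of all promoters. The GATA-type motifs AGATAA and TGATAA, which occur in 11.4% and 9.26% of all promoters, had no match in the 6 windows. These matches describe letters in the windows and are not evidence of binding.

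Each library held between 23850565 and 62126131 counts, with a median of 32058379 in A226Y and 31702989 in WT, and the lowest count of any member in any mouse was 236 (*Lyve1*). *Rps2* itself was lower in A226Y, at 68.6 ± 13.3 CPM (SD, n = 10), against 114 ± 13 in WT (SD, n = 8), a log2 fold change of -0.73 (SE 0.11, adjusted p = 0.000772). All 10 A226Y mice lay below every WT mouse, in keeping with the labels. In all, 1910 genes passed an adjusted p of 0.05, or 14.3% of those tested, with 7.27% higher and 7.03% lower in A226Y. Levels are given in CPM, the usual measure of counts scaled to a fixed library size, with library sizes adjusted by edgeR's TMM factors. Fold changes below are A226Y against WT on the log2 scale, and adjusted p-values are from edgeR's quasi-likelihood test over all 13353 genes. They measure the spread between mice, and each animal number occurs in 1 genotype only.

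None of the 10 sinusoidal markers passed this threshold, against the 14.3% of all genes that did. DESeq2 and limma-voom likewise called 0 of 10. At an unadjusted p under 0.05, a level that 29.6% of all tested genes reached, 1 member passed with each of the 3 tools (*Clec4g*). Of the 10 log2 fold changes, 5 were positive and 5 negative, with a median of -0.01 beside -0.0044 over all genes. Their median size, regardless of sign, was 0.08, against 0.14 over all genes. The median standard error was 0.095 for the markers and 0.098 over all genes. Among the 6474 genes with means of 10 to 100 CPM, the range in which all 10 markers lie, 17.4% were called and the median standard error was 0.075. Called genes had log2 fold changes of at least 0.13 in size, with a median of 0.35. For 8 of the 10 markers the 95% interval lay within 1.3-fold in either direction, and for 9, all but *Lyve1*, it lay within 1.4-fold. In bulk tissue, fewer endothelial cells and less RNA per cell cannot be told apart, and the same holds for more cells and more RNA per cell.

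**Figure D1:**
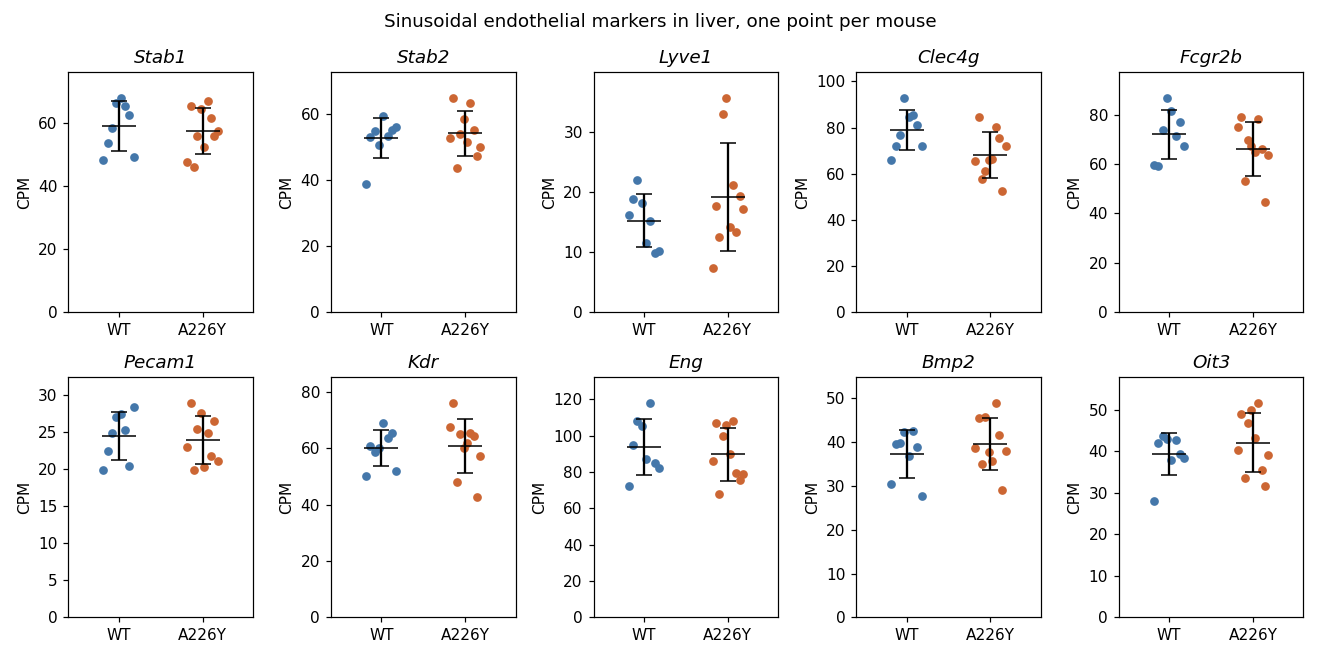
Level of each marker in library-scaled counts (CPM, vertical axis, from 0) in WT (blue, 8 mice) and A226Y liver (orange, 10 mice), 1 point per mouse, with bars for the mean and SD. The genotypes overlap for all 10 markers, and 2 A226Y mice stand at 33 and 35.7 CPM of Lyve1, above the highest WT mouse at 22.

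The first group comprised the scavenger and lectin receptors. *Stab1* (chromosome 14, 31139013 to 31168641, minus strand, GRCm38) encodes stabilin-1, a large receptor for modified lipoproteins and matrix proteins. Levels ran from 48.2 through a median of 60.5 to 68.0 CPM in WT and from 46.0 through 56.7 to 66.8 CPM in A226Y. The ranges overlapped almost fully, with 2 A226Y mice below every WT mouse and 1 WT mouse above every A226Y mouse. In A226Y against WT its log2 fold change was -0.04 (SE 0.09, 95% interval -0.22 to 0.14, adjusted p = 0.793). Its exons share 112 bases with those of *Nt5dc2* on the other strand, a small part of 10288 exonic bases.

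*Stab2* (chromosome 10, 86841198 to 87008025, minus strand) encodes stabilin-2, the main hyaluronan clearance receptor of the sinusoid. WT mice spanned 38.8 to 59.3 CPM around a median of 54.1, and A226Y mice spanned 43.6 to 64.9 around 53.3. The lowest mouse was WT animal 4, which stood below all A226Y mice, and 2 A226Y mice stood above every WT mouse. The log2 fold change was 0.04 (SE 0.08, 95% interval -0.13 to 0.21, adjusted p = 0.792), the smallest standard error among the markers.

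*Clec4g* (chromosome 8, 3707064 to 3720651, minus strand) encodes LSECtin, a C-type lectin of the sinusoidal surface. It was the marker with the lowest p. In WT its levels were 65.9 in animal 4, 72.1 in 33, 72.2 in 6, 76.9 in 13, 81.2 in 28, 84.4 in 21, 85.3 in 24 and 93.0 CPM in 14. In A226Y they were 52.5 in animal 29, 57.8 in 7, 61.1 in 11, 65.4 in 3, 65.8 in 15, 66.6 in 18, 72.0 in 32, 75.5 in 23, 80.3 in 22 and 84.7 CPM in 5. Thus 5 A226Y mice lay below every WT mouse, 2 WT mice lay above every A226Y mouse, and the WT mean was exceeded by 2 A226Y mice. The means were 78.9 ± 8.78 CPM in WT (SD, n = 8) and 68.2 ± 10 CPM in A226Y (SD, n = 10). The log2 fold change was -0.21 (SE 0.09, 95% interval -0.39 to -0.03), with an unadjusted p of 0.026 that did not survive adjustment over all genes (adjusted p = 0.11). The two-sided exact permutation test over the 43758 divisions of the mice gave p = 0.0309 for this gene alone, before any adjustment. Leaving out 1 mouse at a time moved the log2 fold change between -0.25 and -0.17 and the adjusted p between 0.0507 and 0.216. Adding 4 surrogate variables to the fit gave -0.07 (SE 0.08, adjusted p = 0.72), and an offset for transcript length gave -0.14 (adjusted p = 0.28).

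*Fcgr2b* (chromosome 1, 170958617 to 170976547, minus strand) encodes the inhibitory IgG receptor that removes small immune complexes in the sinusoid and is also made by B cells and macrophages. WT mice ran from 59.1 through 72.7 to 86.9 CPM and A226Y mice from 44.6 through 66.5 to 78.9 CPM. At each end the ranges were offset by 2 mice, with 2 A226Y mice below every WT mouse and 2 WT mice above every A226Y mouse. This gave a log2 fold change of -0.12 (SE 0.1, 95% interval -0.34 to 0.09, adjusted p = 0.438). B and plasma cell genes and Kupffer cell genes, given further on, had negative median fold changes, and their part in the *Fcgr2b* value was not tested.

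*Lyve1* (chromosome 7, 110850607 to 110863239, minus strand) encodes a hyaluronan receptor shared by sinusoidal and lymphatic endothelium. It was the most variable marker. WT levels were 9.8 to 22 CPM with a median of 15.6, and A226Y levels were 7.32 to 35.7 with a median of 17.4. A226Y held both the lowest mouse (animal 3, 7.32 CPM) and the 2 highest (animal 11 at 33 and animal 15 at 35.7 CPM). The spread relative to the mean was 29.2% in WT and 46.7% in A226Y, while the other 9 markers lay between 10.7% and 17.0%. From the lowest to the highest mouse *Lyve1* differed 4.88-fold, and the others between 1.46-fold (*Pecam1*) and 1.95-fold (*Fcgr2b*). The log2 fold change was 0.33 (SE 0.25, 95% interval -0.18 to 0.85, adjusted p = 0.385), the largest in size and the least precise. Without animals 11 and 15 it was 0.01 (SE 0.2, adjusted p = 0.981), an alternative chosen after the values were seen.

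The second group comprised adhesion and growth factor receptors. *Pecam1* (chromosome 11, 106654217 to 106750628, minus strand) encodes CD31, a junctional adhesion molecule of all endothelium. WT mice ran from 19.9 through 25 to 28.3 CPM and A226Y mice from 19.8 through 23.9 to 28.9 CPM. The 2 ranges were nearly the same, with 1 A226Y mouse beyond each end of the WT range. Between the genotypes the log2 fold change was -0.03 (SE 0.09, 95% interval -0.21 to 0.15, adjusted p = 0.848).

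*Kdr* (chromosome 5, 75932827 to 75978458, minus strand) encodes VEGFR2, the main signalling receptor for VEGFA. Levels were 50.1 to 69.0 CPM in WT (median 60.5) and 42.6 to 76.1 CPM in A226Y (median 63.0). The A226Y mice were more spread, with 2 below and 1 above every WT mouse. Their log2 fold change was 0.02 (SE 0.09, 95% interval -0.18 to 0.21, adjusted p = 0.918).

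*Eng* (chromosome 2, 32646595 to 32682669, plus strand) encodes endoglin, a co-receptor for BMP9 and BMP10. Levels were 72.1 to 118 CPM in WT (median 91.0) and 67.8 to 108 CPM in A226Y (median 87.8). The 2 highest mice were WT and the lowest was A226Y, and the rest intermingled. A log2 fold change of -0.06 resulted (SE 0.11, 95% interval -0.28 to 0.16, adjusted p = 0.727). *Eng* shares 61 exonic bases with *Fpgs* on the other strand, out of 4048. *Stab2*, *Clec4g* and *Fcgr2b* share 141, 146 and 155 exonic bases with antisense genes that are not in the count lists, and whether counting used strand is not given in the sources used here.

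The third group comprised secreted products. *Bmp2* (chromosome 2, 133552159 to 133562885, plus strand) encodes a BMP ligand of the sinusoid that stimulates hepcidin in hepatocytes. Its levels were 27.8 to 42.6 CPM in WT (median 39.4) and 29.2 to 49.0 CPM in A226Y (median 38.2). Above every WT mouse stood 3 A226Y mice, and the lowest mouse was WT. For *Bmp2* the log2 fold change was 0.09 (SE 0.1, 95% interval -0.12 to 0.29, adjusted p = 0.588).

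*Oit3* (chromosome 10, 59422958 to 59441778, minus strand) encodes a protein with a zona pellucida domain. WT mice ran from 28.1 through 40.7 to 43.7 CPM and A226Y mice from 31.7 through 41.8 to 51.7 CPM. As with *Bmp2*, the A226Y range was shifted upwards, with 4 A226Y mice above every WT mouse and 1 WT mouse, animal 4, below every A226Y mouse. For *Oit3* it was 0.1 (SE 0.1, 95% interval -0.12 to 0.31, adjusted p = 0.56). The exact permutation p-values of the 9 markers other than *Clec4g* ran from 0.257 (*Fcgr2b*) to 0.933 (*Kdr*).

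**Figure D2:**
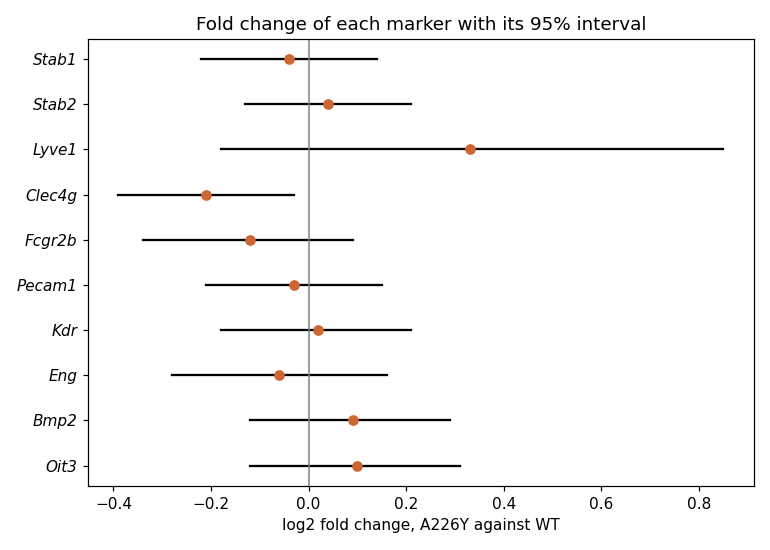
Log2 fold change of each marker, A226Y (10 mice) against WT (8 mice), on the horizontal axis, as a point with its 95% interval from edgeR. The intervals of 9 markers include 0, that of Clec4g runs from -0.39 to -0.03, and that of Lyve1, from -0.18 to 0.85, is the widest.

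Per length of transcript, the markers were ordered by their levels. In WT, CPM per kilobase of merged exons (RPKM) were 32 ± 3.56 for *Clec4g*, 23.2 ± 3.78 for *Eng*, 14.1 ± 1.82 for *Oit3*, 12.4 ± 1.7 for *Fcgr2b* and 10.5 ± 1.53 for *Bmp2* (SD, n = 8). The remaining 5 lay lower, at 6.64 ± 0.71 for *Kdr*, 6.01 ± 0.703 for *Stab2*, 5.73 ± 0.761 for *Stab1*, 5.21 ± 1.52 for *Lyve1* and 3.92 ± 0.513 for *Pecam1*. Each of 3 steps held in all 18 mice of both genotypes: *Clec4g* above *Eng*, *Eng* above *Oit3*, and *Bmp2* above *Kdr*. In A226Y animal 15, *Lyve1* stood above *Bmp2* and *Fcgr2b*. Neighbours between these steps exchanged places in at least 2 mice, for example *Fcgr2b* stood above *Bmp2* in 12 of 18 and *Stab1* above *Lyve1* in 10 of 18. In WT the gaps of *Oit3* to *Fcgr2b* (1.69 ± 1.85), *Stab2* to *Stab1* (0.278 ± 0.722), *Stab1* to *Lyve1* (0.524 ± 1.74) and *Lyve1* to *Pecam1* (1.29 ± 1.65 RPKM, SD over WT mice) were smaller than their spread, so these neighbours are not resolved. In A226Y the mean of *Lyve1* (6.55 ± 3.06 RPKM, SD, n = 10) stood above those of *Stab2* (6.18 ± 0.766) and *Stab1* (5.57 ± 0.705), unlike in WT. This *Lyve1* mean was raised by A226Y animals 11 and 15, at 11.3 and 12.2 RPKM.

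Summed over the 10 markers, the level was 429 to 592 CPM in WT (median 548) and 417 to 618 CPM in A226Y (median 509). The lowest 3 mice were A226Y animals 7 (417) and 29 (425) and WT animal 4 (429), and the highest 2 were A226Y animals 5 (618) and 22 (609). High and low sums thus occurred in both genotypes, and the A226Y range enclosed the WT range.

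Within a genotype, most markers deviated together from mouse to mouse. After centring log2 CPM on the genotype mean, the 36 pairs of markers without *Lyve1* had a median Pearson r of 0.67 over 18 mice, from 0.15 to 0.91, the highest between *Oit3* and *Eng*. The 9 pairs with *Lyve1* had a median of 0.29, from -0.06 to 0.52. Against the mean of the other markers, r was 0.9 for *Eng* (Spearman's rho 0.88), 0.87 for *Oit3* (0.88), 0.52 for *Pecam1* (0.53) and 0.26 for *Lyve1* (0.35). Without the 2 mice farthest from the median of the marker mean, these were 0.86, 0.85, 0.6 and 0.27. The 6 remaining markers lay between 0.65 (*Kdr*) and 0.76 (*Stab1*, *Bmp2*). These values describe the mice, which share a library for all genes, and carry no test.

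**Figure D3:**
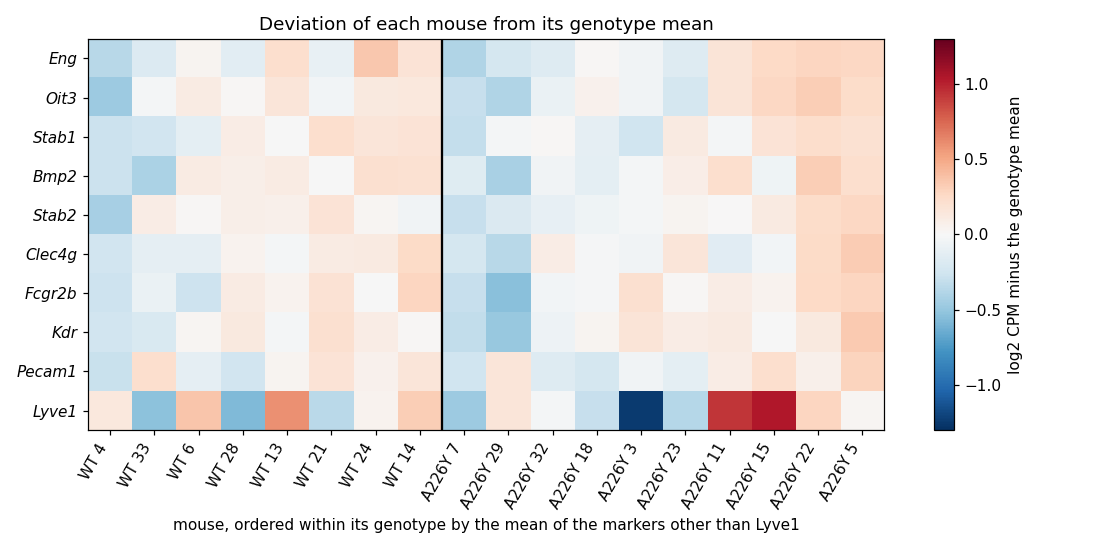
Deviation of each marker (rows) in each mouse (columns) from its genotype mean in log2 CPM, from blue (lower) to red (higher), with WT left and A226Y right of the line and mice ordered by the mean of the 9 markers other than Lyve1. WT animal 4 and A226Y animal 7 are low and A226Y animals 22 and 5 high across those rows, while Lyve1 follows another order, with A226Y animals 11 and 15 highest and 3 lowest.

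The genes whose deviations were most like the mean of the 10 markers, among 11931 other genes with at least 1 CPM on average, were led by *Cyp4b1* (r = 0.86), *Gpr182* (0.85), an atypical chemokine receptor of sinusoidal endothelium, *Itpkb* (0.84) and *Flt4* (0.83), which encodes VEGFR3. They were followed by *Gm45837*, *Adgrl4* and *Ppp1r16b* (each 0.82) and *Tmem132e*, *Fam171a1* and *Add3* (each 0.81). Of these 10 genes, 2 (*Gpr182*, *Flt4*) were on the endothelial lists used here, and 0 passed the genotype comparison (edgeR adjusted p from 0.185 for *Gm45837* to 0.97 for *Tmem132e*). The 39 other sinusoidal and pan-endothelial genes above that level had a median r of 0.45, from -0.29 (*Nos3*) to 0.85 (*Gpr182*). The median was -0.02 over all genes, -0.05 for Kupffer cell, -0.09 for stellate cell and -0.19 for hepatocyte genes. The 11 large vessel genes above that level ranged from -0.42 (*Gja4*) to 0.55 (*Efnb2*), with a median of 0.11. Except *Plvap* and *Vcam1*, these large vessel genes lay under 10 CPM on average. By this description, which carries no test, the median r was higher for sinusoidal and pan-endothelial than for large vessel genes, and the 2 ranges overlapped.

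*Lyve1* was set apart here too. The genes most like it, chosen after its values were seen, were *Esm1* (r = 0.77), *Capn12* (0.72), *Cpm* (0.69), *Adgrg3* (0.68) and *Cdon* (0.66). The rest of the first 10 were *Sppl2b*, *Angpt2* and *Ccdc71* (each 0.66) and *Zbtb8a* and *Spef1* (each 0.65). None of these 10 genes was on the lists used here. *Esm1* encodes endocan, a proteoglycan of sprouting endothelium, and *Angpt2* a ligand of the Tie2 receptor, and these 2 were picked for comment from the 10. In A226Y animal 15, where *Lyve1* was highest, *Esm1* was 5.06 and *Angpt2* 2.2 CPM, above the highest of the other 16 mice (3.37 and 1.87 CPM). *Cpm*, *Adgrg3*, *Cdon* and *Sppl2b* also exceeded those mice there, and *Capn12*, *Ccdc71*, *Zbtb8a* and *Spef1* did not. High values in this mouse follow in part from choosing genes by their likeness to *Lyve1*. In A226Y animal 11 *Esm1* and *Angpt2* were 1.78 and 1.26 CPM, within the range of the others. Without both animals r was 0.73 for *Esm1* and 0.68 for *Angpt2*. Neither gene passed the genotype comparison (log2 fold change 0.18, adjusted p = 0.762, and 0.2, adjusted p = 0.613).

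Since the markers share a library, their ratios within a mouse do not depend on library scaling. Of the 45 ratios, *Clec4g* to *Bmp2* differed most between the genotypes relative to its spread, and it is given as a description because it was picked for that difference. The ratio of CPM was 1.82 to 2.6 in WT (median 2.13) and 1.34 to 1.9 in A226Y (median 1.77). Of the 10 A226Y mice, 7 lay below every WT mouse, and 7 of 8 WT mice lay above every A226Y mouse. The log2 difference was -0.3 with an SD within genotypes of 0.15. It was -0.24 with the offset for transcript length, -0.21 with surrogate variables and -0.31 with the offset for GC content. *Clec4g* to *Oit3* gave a similar difference of -0.31 (SD 0.19). The ratios of *Kdr* and *Stab2* to *Clec4g* (0.23 and 0.26) shrank to 0.09 and 0.06 with the length offset. *Clec4g* has the shortest exons of the 10 genes, at 2462 bases, against 9030 for *Kdr* and 8757 for *Stab2*.

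**Figure D4:**
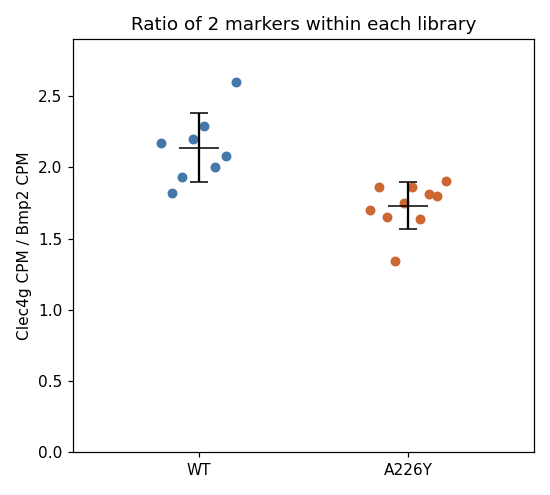
Ratio of Clec4g to Bmp2 CPM within each library (vertical axis, from 0), 1 point per mouse, in WT (blue, 8) and A226Y (orange, 10), with bars for the mean and SD. WT mice lie between 1.82 and 2.6 and A226Y mice between 1.34 and 1.9, for a pair chosen among 45 after the values were seen.

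Other endothelial genes were compared through lists of known markers. Of 20 other sinusoidal genes 0 passed with edgeR, DESeq2 or limma-voom, and the median log2 fold change was -0.02. With the length offset 1 passed in edgeR, beside 11.8% of all genes. At an unadjusted p under 0.05 there were 3, the Wnt enhancer *Rspo3* (0.21, adjusted p = 0.0758), the membrane trafficking gene *Ehd3* (0.23, adjusted p = 0.0964) and the lipid phosphatase *Plpp3* (-0.25, adjusted p = 0.0898). Of 20 pan-endothelial genes 0 passed with edgeR and limma-voom and 2 with DESeq2, which called 18.1% of all genes. The median was -0.1, with 13 negative values. An unadjusted p under 0.05 was reached by 5 (4 negative), beside 29.6% of all genes at that level. With edgeR the count ranged from 0 to 3 when 1 mouse was left out, with 3 without WT animal 6, where 18.8% of all genes passed. It was 1 with unscaled libraries (15.4% of all genes), with upper quartile scaling (14.4%) and with 10 counts required in every mouse (15.3%). Of 13 tested genes of large vessels 0 passed with the 3 tools, with a median of -0.05 and 2 at an unadjusted p under 0.05, both negative. Without A226Y animal 5 or animal 29, 1 large vessel gene passed, beside 15.1% and 19.2% of all genes. The share called by edgeR over all genes was 14.3% in the main fit.

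The VEGF list, the ligands and receptors around *Kdr*, had 8 tested genes with a median of -0.15, of which 1 passed, beside 14.3% of all genes, and 5 had an unadjusted p under 0.05 (1 positive, 4 negative), beside 29.6%. The gene that passed was the co-receptor *Nrp1*, which fell from 85.3 ± 25.2 CPM in WT (n = 8) to 62.9 ± 7.48 CPM in A226Y (n = 10), a log2 fold change of -0.44 (SE 0.14, adjusted p = 0.0373). WT mice ran from 54.2 to 122 CPM and A226Y mice from 48.6 to 73.6, with 5 WT mice above every A226Y mouse. This call was lost under 14 of 30 alternatives, 9 of them with 1 mouse left out. Leaving out 1 mouse gave log2 fold changes from -0.51 to -0.35, and with surrogate variables it was -0.01 (adjusted p = 0.966). DESeq2 called 2 of the 8 genes and limma-voom 0. *Vegfa*, the ligand of *Kdr*, had a log2 fold change of -0.16 and *Vegfb*, a ligand of VEGFR1, of -0.48 (adjusted p = 0.16 and 0.0506). The others at that level were the ligand *Vegfc* (-0.29, adjusted p = 0.118) and *Flt1*, which encodes VEGFR1 (0.18, adjusted p = 0.152).

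Around *Bmp2* and *Eng*, 7 of 25 tested genes of the BMP and TGF-beta pathway passed, 5 higher and 2 lower in A226Y, with a median of 0.07, beside 14.3% of all genes. With surrogate variables, where 2.13% of all genes passed, 2 of the 25 did, *Bmpr2* and *Tmprss6*. *Bmp10*, a ligand that binds endoglin, rose from 1.08 ± 0.37 to 1.58 ± 0.283 CPM (log2 fold change 0.54, SE 0.17, adjusted p = 0.0382), a call lost under 17 of 30 alternatives. It was at 0.47 to 0.71 with 1 mouse left out and at 0.24 with surrogate variables (adjusted p = 0.485). The receptors *Tgfbr1* (0.29, adjusted p = 0.00866) and *Bmpr2* (0.28, adjusted p = 0.0138) rose, the first losing its call with surrogate variables (0.19, adjusted p = 0.0929) and the second with the length offset (0.11, adjusted p = 0.272). *Acvr2b*, another receptor, fell from 2.79 to 1.83 CPM (-0.6, adjusted p = 0.0154) and was at -0.32 with surrogate variables (adjusted p = 0.364). *Tmprss6*, a hepatocyte protease that restrains BMP signalling to hepcidin, fell from 559 ± 48.7 to 431 ± 59.3 CPM (-0.38, SE 0.08, adjusted p = 0.00688), with 8 of 10 A226Y mice below every WT mouse, and it passed under all 30 alternatives (-0.24 with surrogate variables). *Hamp*, which encodes hepcidin, had a median of 1218 CPM in WT and 1133 CPM in A226Y, and its log2 fold change had a 95% interval from -0.68 to 0.68 (adjusted p = 0.997). WT animal 33 stood at 53.9 CPM, with the next WT mouse at 1045, and without it the log2 fold change was -0.19 (SE 0.09, adjusted p = 0.193). The BMP target genes *Id1* (0.09, 95% interval -0.42 to 0.6), *Smad7* (-0.05, -0.53 to 0.43) and *Atoh8* (0.13, -0.3 to 0.57) did not pass the threshold either, and the lowest WT mouse was far below the WT median for *Id1* (6.89 against 24.3 CPM) and *Atoh8* (5.98 against 27.6 CPM). Most of these genes are made by several liver cell types.

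In the Wnt list of endothelial ligands and their hepatocyte targets, 2 of 12 genes passed, a share near the 14.3% of all genes. *Znrf3*, a Wnt receptor antagonist, rose (0.23, adjusted p = 0.0417; lost under 15 of 30 alternatives, at 0.19 to 0.26 with 1 mouse left out). *Cyp1a2*, a pericentral cytochrome P450, fell from 441 ± 191 to 217 ± 65.5 CPM (-1.03, SE 0.22, adjusted p = 0.00601) and passed under all 30. Among 9 tested genes that synthesise, break down or bind hyaluronan or bind IgG, the ligands of the receptors above, 0 passed with edgeR and 1 with each of DESeq2 and limma-voom, with a median of -0.27, and 3 had an unadjusted p under 0.05, all negative (*Fcgr1* -0.81, *Fcgrt* -0.27, *Hyal2* -0.13). Without A226Y animal 29, 3 of the 9 passed, beside 19.2% of all genes, and leaving out any other mouse gave 0 or 1.

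Markers of other liver cells gave the setting. Of 14 Kupffer cell genes, 12 had negative fold changes and the median was -0.43. The number that passed was 2, the same share as the 14.3% of all genes, namely *Clec4f* (-0.65, SE 0.19, adjusted p = 0.0261), a lectin of these macrophages, and *Spi1* (-0.65, SE 0.21, adjusted p = 0.045), a myeloid transcription factor, whose call was lost under 19 of 30 alternatives (-0.88 to -0.54 and adjusted p at most 0.0894 with 1 mouse left out). At an unadjusted p under 0.05 there were 6, all negative, beside 29.6% of all genes at that level. The summed Kupffer level ran from 644 to 1243 CPM in WT and from 429 to 1631 CPM in A226Y, and animal 29 of A226Y weighed on the count. Without it 10 of the 14 passed, beside 19.2% of all genes in that fit. Leaving out any other mouse gave between 0 (WT animal 14, 9.42% of all genes) and 5 (WT animal 6, 18.8% of all genes). Of 13 stellate cell genes 4 passed, beside 14.3% of all genes. *Hgf* rose (0.34, adjusted p = 0.0207), and the collagens *Col1a1* (-0.77), *Col3a1* (-0.6) and *Col1a2* (-0.33) fell (adjusted p = 0.0162, 0.00516 and 0.0397). At an unadjusted p under 0.05 there were 6, beside 29.6% of all genes. With surrogate variables, where 2.13% of all genes passed, 0 of the 13 did with edgeR, *Col3a1* being at -0.28 (adjusted p = 0.256), *Col1a1* at -0.62 (adjusted p = 0.14) and *Hgf* at 0.28 (adjusted p = 0.214). *Col1a2* lost its call under 16 of 30 alternatives (-0.4 to -0.29 with 1 mouse left out) and *Hgf* under 3. Of 14 hepatocyte genes 4 passed, beside 14.3% of all genes. *Cps1* (0.55, adjusted p = 0.0137) and *Apob* (0.29, adjusted p = 0.0329) rose and *Serpina1c* (-0.42, adjusted p = 0.0164) and *Apoa2* (-0.31, adjusted p = 0.0481) fell. All 4 calls were lost with surrogate variables, where *Cps1* was at 0.22 (adjusted p = 0.303) and *Serpina1c* at -0.21 (adjusted p = 0.3). The *Apob* and *Apoa2* calls were lost under 13 and 21 of 30 alternatives, with values of 0.25 to 0.33 and -0.36 to -0.26 when 1 mouse was left out. *Serpina1c* belongs to a family of near-identical genes, among which the counting could split reads, so its value is uncertain. The lists of B and plasma cells (8 tested, median -0.31), T and NK cells (7, -0.42), neutrophils and monocytes (6, -0.17), platelets (3, -0.08), red cells (5, -0.45) and cholangiocytes (6, 0.2) gave 0 calls with edgeR, beside 14.3% of all genes. Genes at an unadjusted p under 0.05 numbered 1, 1, 0, 0, 0 and 1, beside 29.6% of all genes. DESeq2 called 1 B or plasma cell and 1 platelet gene, and limma-voom 0 on these 6 lists. The part of these cells in the marker values was not tested.

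**Figure D5:**
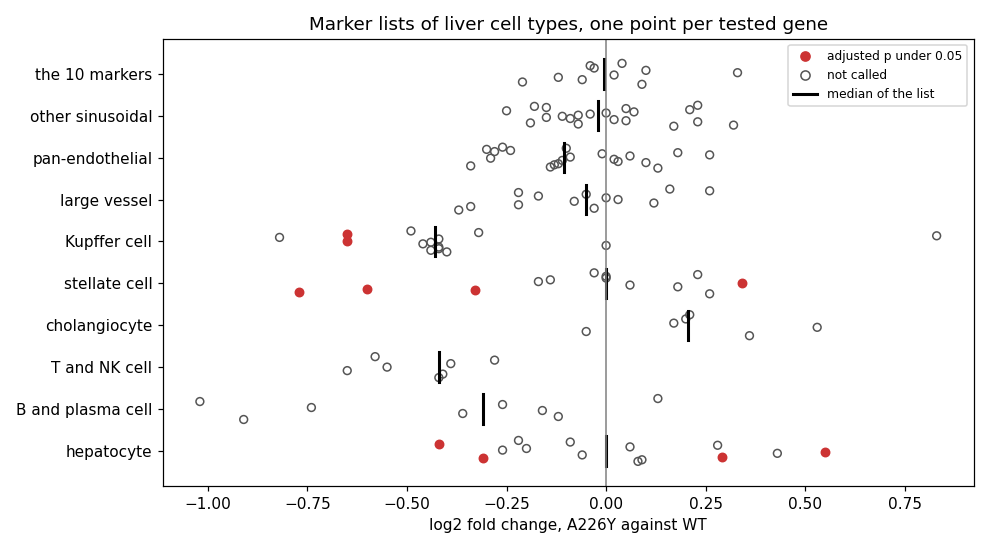
Log2 fold change, A226Y against WT, of every tested gene on the marker lists of 10 groups (rows), with filled red points for genes with an adjusted p under 0.05 in edgeR, open points for the rest and black bars for list medians. The 10 sinusoidal markers and the other endothelial rows hold open points only, with medians of -0.01, -0.02, -0.1 and -0.05, and the Kupffer cell median is -0.43.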

How the data were processed

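The authors deposited, for each of 18 mice, raw read counts for 22524 Ensembl genes. Sources differ on how they were made: the methods name RSEM, Ensembl 75 and GRCm37, and the submitters' processing notes name fastp, STAR, featureCounts and GRCm38. Strand use in counting is not given in the sources used here. GENCODE M21 (GRCm38) gave symbols and coordinates for 22291 identifiers, and 233 had no match. Genotypes were taken from the sample labels.

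A gene was tested if 50% or more of the mice of either genotype had 10 or more counts. The test was run with edgeR 4.0.16 (R 4.3.3, TMM scaling, quasi-likelihood test, no covariates, Benjamini-Hochberg adjustment). Standard errors were derived from the fold change and its F statistic. CPM use TMM library sizes. Two-sided exact permutation tests used log2 CPM. No 2 libraries of a genotype agreed within sampling noise (lowest chi-square per degree of freedom 16.49), and the common biological coefficient of variation was 0.194. Each member had at least 236 counts in every mouse, so counting error was small beside the spread between mice for the members, and it weighed more for genes near 1 CPM. The fits were tested on simulated data.

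The members and lists were chosen with earlier results of these data known. Named genes were the 10 members, *Rps2*, the genes called on each list (the 3 largest per direction where over 6 were called) and the 10 genes most like the members' mean; others were chosen after their values were seen. Alternatives were RLE, upper quartile and unscaled libraries, other count filters, limma-voom 3.58.1, DESeq2 1.42.0, covariates from sva 3.50.0 (4 surrogate variables), offsets for transcript length and GC content, each mouse left out and, added after seeing the data, 2 pairs of mice left out.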

Additional observations from a re-analysis of the deposited data

Results flagged for a closer look

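In the 20 groups of mice examined (10 markers in each genotype), 2 held a mouse far from the others of its genotype, and chance flags about 1 in 20 groups. Both were the same mouse, WT animal 4. Its *Stab2* level was 38.8 CPM, with the next WT mouse at 50.6, and its *Oit3* level was 28.1 CPM, with the next at 38. The gap took a share of 0.578 and 0.633 of the WT range. This mouse also had the lowest sum of the 10 markers in WT, at 429 CPM. Without it the log2 fold change of *Stab2* turned from 0.04 to -0.02 (adjusted p = 0.909) and that of *Oit3* went from 0.1 to 0.04 (adjusted p = 0.833), and neither passed the threshold with or without it.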

How the results depend on the processing

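No member was called under any of 30 alternatives (18 with 1 mouse left out and 12 others), and 286 of 300 member values kept their direction. Among these small fold changes the sign turned for *Pecam1* (0.02 with unscaled libraries, 0.16 with surrogate variables), *Kdr* (-0.05) and *Stab2* (-0.08) with the length offset, *Stab1* (0.08), *Fcgr2b* (0.08) and *Eng* (0.08) with surrogate variables, and *Stab1* (0.02) and *Eng* (0.0) with the GC offset. With surrogate variables every member but *Clec4g* (-0.07) thus had a positive value, including *Kdr* (0.1), *Stab2* (0.14), *Bmp2* (0.14), *Oit3* (0.19) and *Lyve1* (0.25). The length offset moved *Stab1* from -0.04 to -0.16. With 1 mouse left out, *Pecam1* ranged from -0.07 to 0.0, *Kdr* from -0.02 to 0.07 (at -0.01 without WT animal 33) and *Stab2* from -0.02 to 0.07. The cause was not tested.

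Of 177 tested list genes, 20 were called, beside 14.3% of all genes. The count was 31 with DESeq2 (18.1% of all genes) and 7 with surrogate variables (2.13%), 5 of them among the 20. It was 13 without A226Y animals 11 and 15 (9.54%) and 36 without A226Y animal 29 and WT animal 33 (17.8%). Leaving out 1 mouse gave 13 (without A226Y 11, WT 14 or WT 21, at 10.7%, 9.42% and 10.6% of all genes) to 39 (without A226Y 29, at 19.2%). Over all genes, 1910 calls became 285 with surrogate variables, 2418 with DESeq2 and 1255 to 2560 with 1 mouse left out. *Rps2* was lower in A226Y in every alternative, between -0.77 and -0.68 with 1 mouse left out. No paired analysis was possible because the genotypes share no animal number. For 8 markers, differences beyond 1.3-fold in either direction lie outside the 95% interval of the main fit. These intervals were not computed for the alternatives, where *Oit3*, for example, was at 0.19 (SE 0.12) with surrogate variables.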
